A study of Mus musculus with 4 samples.

Results

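Mitochondrial solute carriers are the proteins that move metabolites, nucleotides and cofactors across the inner mitochondrial membrane. They were followed here as probe sets whose only gene symbol in the platform annotation begins with Slc25a, without Slc25a37, to which Ucp1, Ucp2, Ucp3, Mpc1 and Mpc2 were added. The rule gave 96 probe sets of 46 genes, out of 18193 genes with a probe set of their own. Of the 5 added genes, Ucp1, Ucp3 and Mpc1 were matched; Ucp2 and Mpc2 were not analysed here. The members were 43 Slc25a genes and these 3.

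Gene expression was measured with 1 Affymetrix mouse array at each of 4 times in bone marrow cells of female C57Bl/6J mice aged 12 weeks. The day 1 array holds marrow from the day of extraction, and the day 4 array marrow after 3 days of culture, with vitamin D3 at 10 nM and 10% serum in the medium. The day 5 and day 7 arrays hold cells that also had M-CSF (20 ng/ml) and RANKL (40 ng/ml), the cytokines that carry macrophage precursors to osteoclasts, with vitamin D3 still at 10 nM. Their labels count 4 and 6 days of differentiation, which is taken to include the days before the cytokines. There were no replicates, the labels do not say whether the arrays share a culture, and no array of days 5 or 7 lacked the cytokines, so that cytokines and time in culture cannot be told apart. No test was possible, and every value describes these 4 arrays.

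The labels call all 4 samples primary osteoclasts. Of 12 osteoclast marker genes, Calcr, Dcstamp, Ocstamp and Oscar lay at the floor of 32.4 signal units on day 1, Calcr alone on day 4, and none on days 5 and 7. The floor is the median of all values that are not controls, and lower signals were set to it before differences were taken on the log2 scale. The arrays are of mixed cells: the summed signal of 13 red cell genes was 36220 on day 1 and 733, 653 and 576 on days 4, 5 and 7, and that of 16 stromal genes was 4273, 41568, 54944 and 34607 on the 4 days. In such samples, fewer cells of a type and less RNA per cell cannot be told apart.

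Members of the SLC25 family share a fold of repeated pairs of membrane helices and mostly exchange a solute of the matrix for one of the cytosol. The adenine nucleotide translocators export ATP for ADP, the phosphate carrier brings in phosphate for ATP synthesis, and the aspartate/glutamate carriers serve the malate-aspartate shuttle that passes reducing equivalents to the respiratory chain. The pyruvate carrier, made of Mpc1 and Mpc2, belongs to a separate family. Osteoclasts are rich in mitochondria, which supply ATP for acid secretion.

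Most carriers stayed at similar signals through the culture. Only 6 of the 46 genes (13.0%) had a range over the 4 arrays of at least 2-fold, the size at which a gene is called higher or lower below, where 25.6% of all 18193 genes did. These were Slc25a4, Slc25a13 and Slc25a26, all lowest on day 1, and Slc25a22, Slc25a51 and Slc25a53, all highest on day 1. Of the 46 genes, 34 were above the floor on every array, 4 on some and 8 on none. The 8 were Slc25a2, Slc25a18, Slc25a27, Slc25a31, Slc25a41, Slc25a48, Slc25a54 and Ucp1, and they count as not called. In the heat map of carriers by substrate, most cells are pale and the strong colours lie in a few rows.

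**Figure D1:**
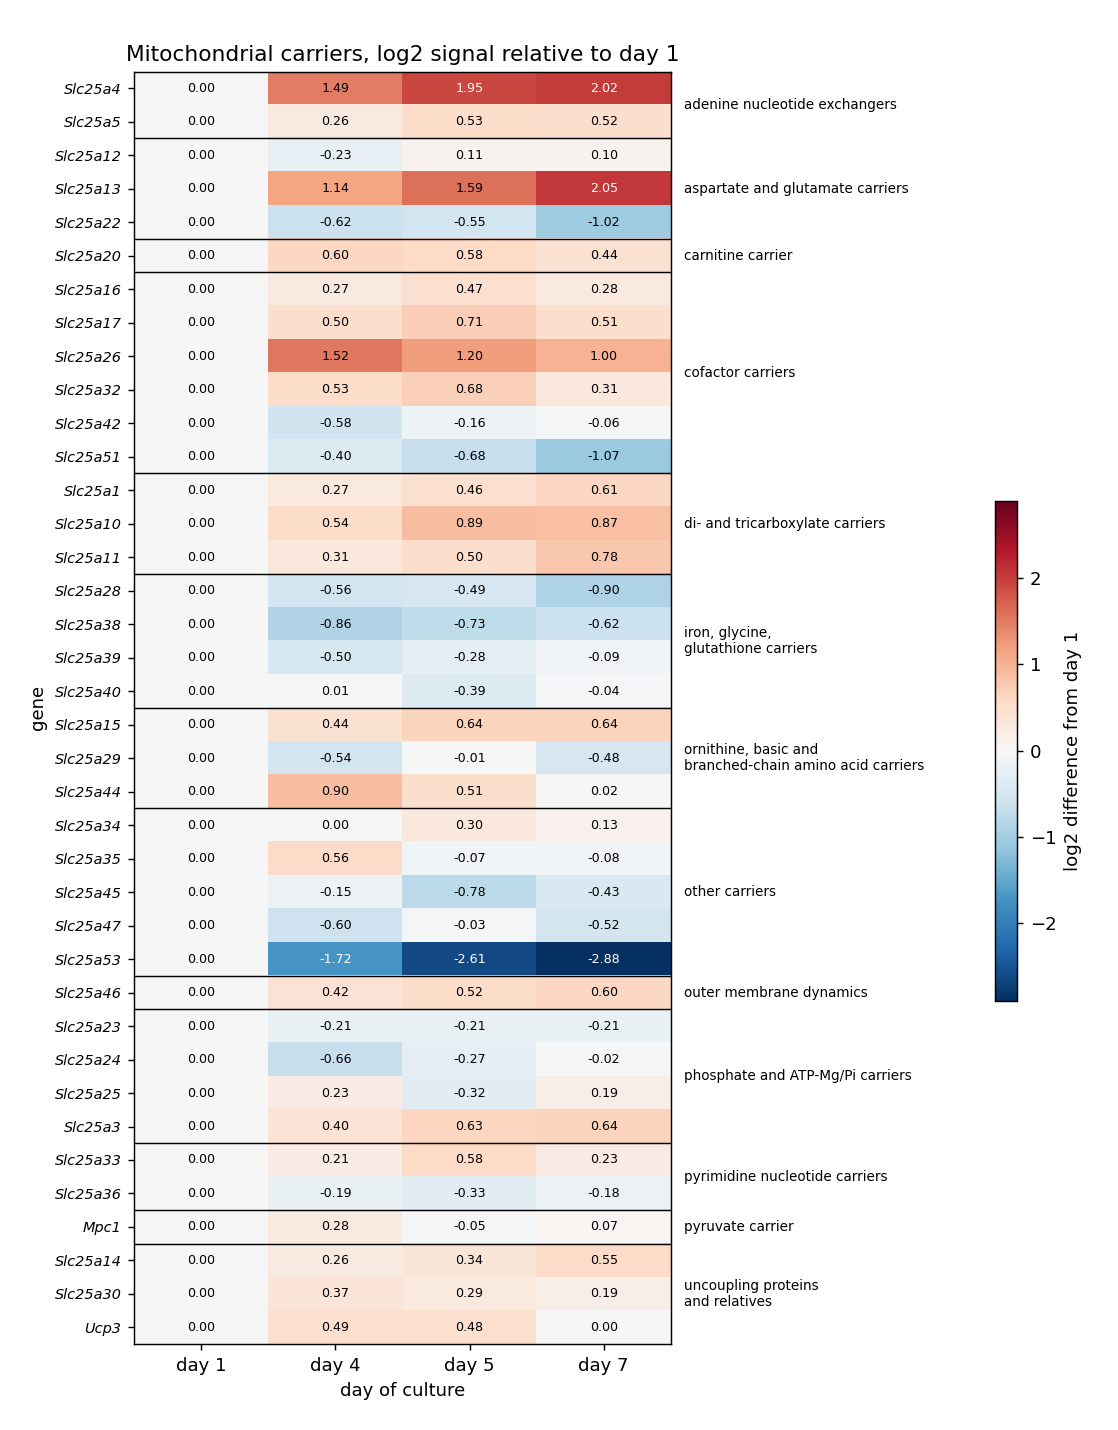
Log2 signal relative to day 1 (colour and printed value) on days 1, 4, 5 and 7 (columns) for the 38 carrier genes above the floor on at least 1 array (rows), grouped by substrate. Slc25a4 and Slc25a13 reach 2.02 and 2.05 on day 7 and Slc25a53 reaches -2.88, while the day 7 values of the other carriers lie between -1.07 and 1.00.

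The bases before the start of Slc25a4 and Slc25a13, the carriers with the largest positive differences on day 7 against day 1, and of Slc25a5, the close relative of Slc25a4, are shown from RefSeq's GRCm38.p6 table. Each run holds the 250.0 bases before the annotated start, written 5′ to 3′ along the gene. Capitals mark the CCAAT box (CCAAT) and the GC box (GGGCGG), searched on both strands.
Slc25a4, chr8:46211063-46211312, minus strand: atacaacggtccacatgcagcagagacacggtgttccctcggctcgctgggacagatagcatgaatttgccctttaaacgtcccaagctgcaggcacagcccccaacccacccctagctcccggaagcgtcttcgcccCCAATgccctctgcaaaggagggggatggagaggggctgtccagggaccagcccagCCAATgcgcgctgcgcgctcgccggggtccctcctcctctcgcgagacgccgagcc
Slc25a13, chr6:6217174-6217423, minus strand: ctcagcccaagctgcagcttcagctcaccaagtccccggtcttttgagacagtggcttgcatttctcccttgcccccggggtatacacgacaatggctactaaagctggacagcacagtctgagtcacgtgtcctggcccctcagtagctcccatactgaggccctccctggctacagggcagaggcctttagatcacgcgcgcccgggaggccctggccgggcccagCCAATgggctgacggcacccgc
Slc25a5, chrX:36795347-36795596, plus strand: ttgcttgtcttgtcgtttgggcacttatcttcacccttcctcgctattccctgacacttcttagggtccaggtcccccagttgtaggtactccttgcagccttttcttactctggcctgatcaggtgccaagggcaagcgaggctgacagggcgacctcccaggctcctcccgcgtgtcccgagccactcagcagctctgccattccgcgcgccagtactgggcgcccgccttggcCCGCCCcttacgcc

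The Slc25a4 window held 2 CCAAT boxes and that of Slc25a13 held 1, with 0 GC boxes in either, and the Slc25a5 window held 1 GC box and 0 CCAAT boxes. Over the 47 windows found for 37 of the 46 members, some of which have several starts, 21 (44.7%) held a CCAAT box and 34 (72.3%) a GC box, beside 33.8% and 32.7% of all 32851 windows of this length. The site of the respiratory factor NRF1 was in 2 member windows, those of Slc25a3 and Slc25a31, and in 3.74% of all windows. The site of the oestrogen-related receptors (tcaaggtca) was in 0 of the 47 and in 0.387% of all windows. A match describes these letters only.

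Slc25a4 encodes the translocator form that dominates in heart and muscle. It had signals of 1648, 4629, 6353 and 6678 on days 1, 4, 5 and 7. The step to day 4 was the largest, and days 5 and 7 lay close together. Slc25a4 was 2.81-fold higher on day 4 than on day 1 and 4.05-fold higher on day 7 than on day 1. A total of 3 probe sets of the gene were above the floor on all arrays, and they gave between 3.65-fold and 4.05-fold on day 7 against day 1; the remaining probe set was under the floor throughout.

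Slc25a5 encodes the translocator form of proliferating cells. The probe set that represents it had signals of 7852, 9418, 11307 and 11226 on days 1, 4, 5 and 7, a 1.43-fold difference on day 7 against day 1. All 8 of its probe sets were higher on day 7 than on day 1, but by unequal amounts, between 1.23-fold and 2.76-fold, and 4 of the 8 passed 2-fold. Those 4 were the ones with signals of 588, 637, 964 and 2227 on day 1. The plot of translocator probe sets shows that they separate into a steeper and a flatter group. The gene is not called here by its representing probe set, and the size of its difference depends on the probe set. Of the 8, 6 carry the suffix _x_at, which marks probes that can also match other transcripts, as does the probe set that represents Slc25a4. The testis form, Slc25a31, stayed at the floor, with signals of 6.11, 9.51, 6.41 and 8.78.

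**Figure D2:**
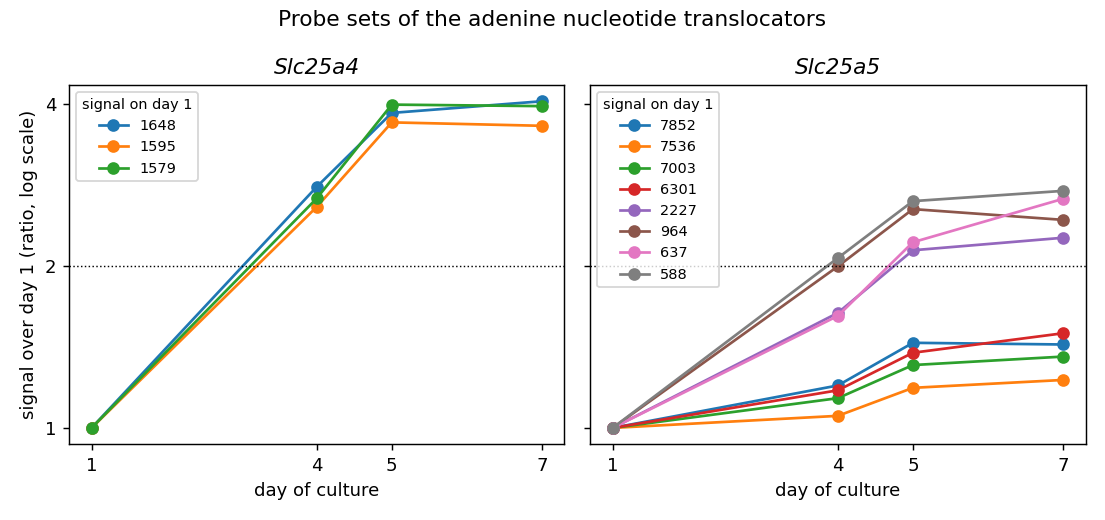
Signal over day 1 (ratio, log axis) against day of culture, for probe sets of Slc25a4 (left) and Slc25a5 (right) above the floor on all arrays; each line is 1 probe set, named by its day 1 signal, and the dotted line marks 2-fold. The 3 Slc25a4 lines lie together near 4 on day 7, and the 8 Slc25a5 lines spread from 1.23 to 2.76.

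Slc25a3, the phosphate carrier, which provides the phosphate for the ATP that the translocators export, had signals of 7095, 9329.7, 10969.7 and 11081 on days 1, 4, 5 and 7. Each array was higher than the one before it, with a log2 difference of 0.64 on day 7 against day 1. A second probe set near the floor went the other way, with 52.7, 46.2, 44.2 and 29.6. Slc25a24, an ATP-Mg/phosphate carrier that adjusts the matrix pool of adenine nucleotides and is activated by calcium, took another course, with 3207, 2023, 2665 and 3172. It was lowest on day 4, at a log2 difference of -0.66 from day 1, and its second probe set was 2.21-fold lower there; on day 7 both were near their day 1 signals, and the second was 2.12-fold higher on day 7 than on day 4. Its relative Slc25a25 stayed between 95.4 and 139.5, and Slc25a23 was above the floor on day 1 alone, at 37.4.

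The mitochondrial aspartate/glutamate exchangers are Slc25a12 (aralar) and Slc25a13 (citrin). Slc25a13 had signals of 97.1, 214, 292 and 402 on days 1, 4, 5 and 7, higher at each step. It was 2.21-fold higher on day 4 than on day 1 and 4.14-fold higher on day 7 than on day 1, by its only probe set. The steps to day 5 and to day 7 were 0.45 and 0.46 on the log2 scale. Slc25a12 had 1022, 870.0, 1103 and 1096, all within a log2 range of 0.34. The 2 exchangers of the same pair of amino acids thus had unequal differences on these arrays.

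Slc25a22, the glutamate/proton carrier, had signals of 325, 211, 221 and 160.0 on days 1, 4, 5 and 7. Its signal was lower on all 3 culture arrays than on day 1, and it was 2.03-fold lower on day 7, just past the 2-fold line. This call was lost under 3 of the 7 alternative settings: the log2 difference was -0.95 with 16 added to each signal, -0.77 after quantile normalization and -0.88 after median scaling.

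The carriers of di- and tricarboxylates were higher at the end of the culture, without reaching 2-fold. Slc25a10, the dicarboxylate carrier, had signals of 325, 473, 602 and 595 on the 4 days, and log2 differences of 0.87 and 0.81 on day 7 against day 1 by its 2 probe sets. Slc25a11, the oxoglutarate/malate carrier that works beside the aspartate/glutamate exchangers, had 1297, 1602, 1833 and 2221, a log2 difference of 0.78. Slc25a1, the citrate carrier that supplies acetyl groups for lipid synthesis, had 591, 713, 812 and 899, a difference of 0.61. These 3 genes were lowest on day 1, and Slc25a1 and Slc25a11 were higher at every step.

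Mpc1, a subunit of the pyruvate carrier, had signals of 3308, 4006, 3191 and 3465 on days 1, 4, 5 and 7, within a log2 range of 0.33. Slc25a20, which brings acylcarnitines in for fatty acid oxidation, had 737, 1117, 1104 and 997, a log2 difference of 0.60 on day 4 against day 1, where its second probe set gave 0.15. Of the uncoupling proteins, Ucp1, the heat-producing form of brown fat, was at the floor throughout, and Ucp3, the muscle form, had 21.5, 45.7, 45.2 and 27.8, near the floor. Their relatives Slc25a14 and Slc25a30 were above it on all arrays, with ranges of 0.55 and 0.37 on the log2 scale; other probe sets of Slc25a30 were lower on day 7 than on day 1 (-0.28 and -0.19), and the representing probe set was higher (0.19).

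Among cofactor carriers, the culture signals of Slc25a26 and Slc25a51 lay on opposite sides of their day 1 signals. Slc25a26, which imports the methyl donor S-adenosylmethionine, had signals of 96.2, 277, 221 and 192 on days 1, 4, 5 and 7. Its 3 culture arrays were all above day 1, with the highest on day 4, 2.87-fold above day 1. On day 7 its log2 difference from day 1 was 1.00 after rounding and just short of 2-fold, so it is not called there. It passed 2-fold there under 4 of the 7 alternatives, at 1.38 with quantile normalization, 1.14 with median scaling, 1.11 with the mean over probe sets and 1.23 without _x_at and _s_at probe sets. On the signals as deposited, the other probe set was at least 2.34-fold higher, with 76.1 on day 7 and 28.8, under the floor, on day 1. The representing probe set has the suffix _s_at, of probes shared by several transcripts.

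Slc25a51, the mitochondrial NAD transporter, had signals of 4157, 3146, 2596 and 1980.5 on days 1, 4, 5 and 7. It was lower at each step and 2.10-fold lower on day 7 than on day 1. All 3 of its probe sets were past 2-fold lower on day 7, at 2.10-fold, 2.47-fold and 14.4-fold, and the last of these had 695, 320.2, 102 and 48.3 on the 4 days. The direction was the same for the 3 probe sets and the size was not. After median scaling the log2 difference was -0.93, under 2-fold. Slc25a17, a peroxisomal member that carries coenzyme A and related cofactors, and Slc25a32, the folate and FAD carrier, were highest on day 5, with log2 differences of 0.71 and 0.68 from day 1. Slc25a16 and Slc25a42, of coenzyme A supply, had ranges of 0.47 and 0.58.

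**Figure D3:**
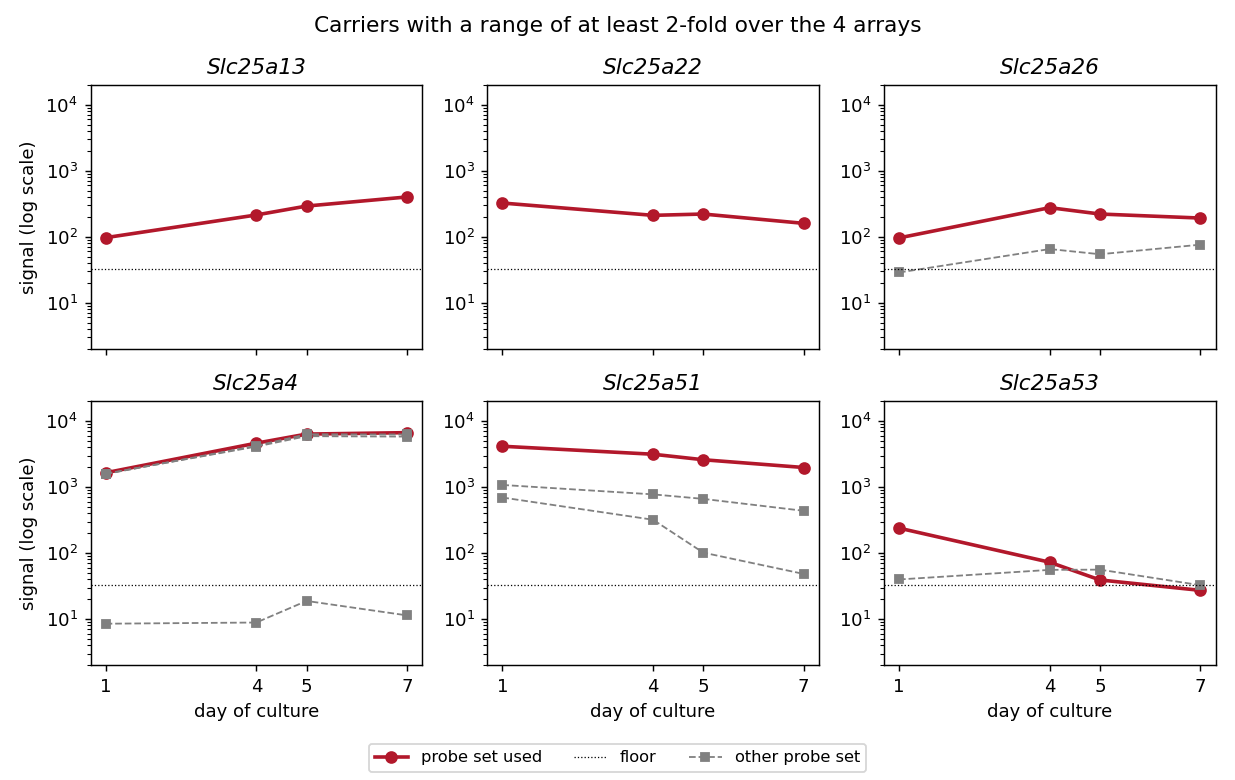
Signal (log axis) against day of culture for the 6 carriers with a range of at least 2-fold; the red line is the probe set that represents the gene, grey dashed lines are its other probe sets and the dotted line is the floor of 32.4. Slc25a4 and Slc25a13 are highest on day 7, Slc25a26 on day 4, and Slc25a22, Slc25a51 and Slc25a53 on day 1. The second Slc25a53 probe set lies near the floor, between 32.6 and 56.1.

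Slc25a53, a carrier with no function stated here, had signals of 239, 72.7, 39.2 and 27.3 on days 1, 4, 5 and 7. By this probe set it was 3.29-fold lower on day 4 than on day 1 and at least 7.37-fold lower on day 7. A second probe set had 39.8, 55.7, 56.1 and 32.6, a log2 difference of 0.48 on day 4 against day 1. The direction on day 4 against day 1 therefore depends on the probe set. The second probe set gave -0.29 on day 7 against day 1 and -0.77 on day 7 against day 4. In those comparisons the direction was the same and the difference smaller.

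Of 4 carriers of iron, glycine and glutathione, 3 had lower signals on day 4 than on day 1, none by 2-fold. Slc25a38 imports glycine for haem synthesis in developing red cells, and had signals of 357, 196, 215 and 233 on days 1, 4, 5 and 7, with a log2 difference of -0.86 on day 4 against day 1. Slc25a28, mitoferrin-2, the iron importer of cells other than red cells, had 1084, 733, 774 and 580.3, a difference of -0.90 on day 7 against day 1. Slc25a39, a glutathione importer, had 7661, 5422, 6306 and 7190.4, with its lowest signal on day 4 by all 4 of its probe sets above the floor and log2 differences between -0.61 and -0.46 there. On day 7 against day 1 the representing probe set of Slc25a39 gave -0.09 and the other 3 gave 0.35, 0.13 and 0.05. Its relative Slc25a40 differed by 0.01 on day 4 against day 1 and by -0.04 on day 7 against day 1. None of the 4 reached 2-fold in any comparison. Slc25a37, mitoferrin-1 of red cells, which the rule leaves out, had 4256, 737, 507 and 365. On day 4 against day 1, 9 of 13 red cell marker genes were at least 2-fold lower. So were 9 of 15 neutrophil markers and 8 of 11 B cell markers. Of the red cell genes, Alas2, Slc4a1, Klf1 and Rhag were at the floor on days 4, 5 and 7. The part of red cells, neutrophils and B cells in the signals of these carriers, and of Slc25a51, Slc25a53 and Slc25a22, was not tested.

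Amino acid carriers were mixed. Slc25a44, which imports branched-chain amino acids, had signals of 225, 420.2, 320.1 and 228, highest on day 4 at a log2 difference of 0.90 from day 1, with 0.64 and 0.07 by its other 2 probe sets. Slc25a15, the ornithine carrier, had 218, 296, 339.7 and 339, a difference of 0.64 on day 7 against day 1. Slc25a29, of basic amino acids, had 111, 76.2, 109.7 and 79.4, and all 4 of its other probe sets were lower on day 4 than on day 1 too, 3 of them under the floor after day 1. Slc25a47 had a similar course at 76.8, 50.6, 75.4 and 53.4, by an _s_at probe set. The pyrimidine nucleotide carriers Slc25a33 and Slc25a36 had ranges of 0.58 and 0.33, and Slc25a46, an outer membrane member that acts in mitochondrial fission and fusion, had 1237, 1659, 1776 and 1869, higher at each step. Slc25a45 had 961, 865, 559 and 711, Slc25a35 was at most 81.3, and Slc25a34 was above the floor on days 5 and 7 alone, at 40.0 and 35.5.

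The next values count the carriers at each comparison. On day 4 against day 1, 3 of the 46 genes were at least 2-fold higher (Slc25a26, Slc25a4 and Slc25a13), or 6.52%, beside 6.61% of all 18193 genes. On the lower side it was 1 (Slc25a53), or 2.17%, beside 5.69%. The median log2 difference of the 38 carriers above the floor on at least 1 array was 0.26, and that of the 12438 such genes was 0.03. The share of higher calls lay near that of all genes and does not set the carriers apart. The share of lower calls was below that of all genes, but it rests on 1 gene and the difference was not tested.

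On day 5 against day 4, the step that begins exposure to both cytokines, 0 carriers were higher and 0 lower by 2-fold, beside 1.31% and 2.62% of all genes. The median was 0.14 for carriers and 0.03 for all genes. By the representing probe sets, the largest positive differences were those of Slc25a47 (0.58) and Slc25a29 (0.53). Slc25a4 and Slc25a13 followed at 0.46 and 0.45. Slc25a47 has 1 probe set, with signals of 50.6 and 75.4. A second Slc25a29 probe set above the floor on all arrays gave 0.06. The 3 Slc25a4 probe sets above the floor gave between 0.46 and 0.58. In this step the S phase list had a median of 1.02, with 8 of its 13 genes past 2-fold higher, and 10 of 11 megakaryocyte markers were lower; their part in the carrier signals was not tested.

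On day 7 against day 5, again 0 carriers were called in either direction, beside 0.544% of all genes higher and 3.73% lower. The carrier median was -0.01 and that of all genes -0.09. The sign of both depended on scaling. With quantile normalization they were 0.11 and 0.003, and with median scaling 0.17 and 0.02. Of all called genes 12.7% were higher here, and 31.7% or 27.2% once arrays were quantile normalized or scaled to a common median. Over the whole time with cytokines, day 7 against day 4, 0 were higher and 1 was lower (Slc25a53), beside 2.02% and 5.89% of all genes. The higher share of all calls was 25.5% there, and 43.8% and 39.9% with those scalings. Slc25a13 had the largest positive difference there, 0.91, and it passed 2-fold after quantile normalization (1.09) and after median scaling (1.07). With the mean over probe sets the 1 lower carrier there was Slc25a51 (-1.41) in place of Slc25a53.

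On day 7 against day 1, 2 of 46 carriers were at least 2-fold higher (Slc25a13 and Slc25a4), beside 8.33% of all genes, and 3 were lower (Slc25a53, Slc25a51 and Slc25a22), beside 10.7%. This split depended on scaling, with 3 higher and 2 lower after quantile normalization and 4 higher and 1 lower after median scaling. Of all called genes 43.9% were higher with the signals as deposited. Quantile normalization gave 56.2% and median scaling 53.1%. With quantile normalization the median was 0.39 for carriers and 0.12 for all genes, with median scaling 0.25 and 0.10, and with the signals as deposited 0.12 and 0.00. The carrier median lay above that of all genes in each case. Just inside the 2-fold line lay Slc25a22 (-1.02) and Slc25a51 (-1.07), and just outside it Slc25a26 (1.00), Slc25a28 (-0.90) and Slc25a10 (0.87). Comparisons that share an array are not independent of each other.

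**Figure D4:**
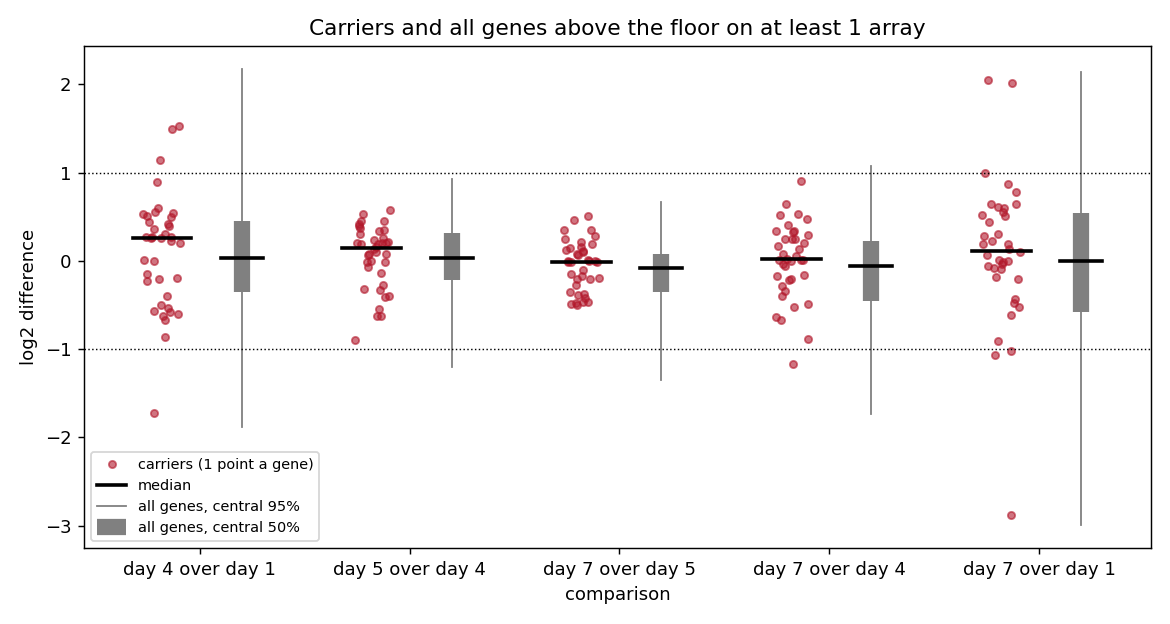
Log2 difference (vertical axis) in each of the 5 comparisons, for the 38 carriers (red points, left, black line at the median) and the 12438 genes above the floor on at least 1 array (grey bars, right: thin line the central 95%, thick bar the central 50%, black line the median). Dotted lines mark 2-fold; most points lie between them, and the carrier medians were 0.26, 0.14, -0.01, 0.02 and 0.12 against 0.03, 0.03, -0.09, -0.05 and 0.00 for all genes.

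By order alone, 7 of 46 carriers (15.2%) had a higher signal at each of the 3 steps, beside 6.96% of all genes: Slc25a1, Slc25a3, Slc25a4, Slc25a11, Slc25a13, Slc25a14 and Slc25a46. A further 2 (4.35%) were lower at each step, Slc25a51 and Slc25a53, beside 9.53% of all genes. The order takes no account of step size. On day 7 against day 5 Slc25a3 differed by 0.01 and Slc25a4 by 0.07 on the log2 scale. Other probe sets of Slc25a4 above the floor gave -0.01 and -0.02 there. The second probe set of Slc25a3, near the floor, was lower at each step, and that of Slc25a46 was higher at each. A step with both arrays at the floor could not count in either direction, and the last step of Slc25a53 ended at the floor. In all, 38 of 46 carriers against 12438 of 18193 genes were above it on at least 1 array.

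The S phase list had a median of 0.65 on day 7 against day 1, with 3 of 13 genes past 2-fold higher. Of the other 8 lists, of partner genes, 7 had a positive median on day 7 against day 1 and the calcium uniporter list a negative one. Carriers reach the inner membrane through the TIM22 pathway. Of 13 of its genes, 0 were called on day 4 against day 1, with a median log2 difference of 0.41, and 5 were at least 2-fold higher on day 7 than on day 1 (median 0.60), led by the outer membrane channel gene Tomm40 (1.69), the small chaperone genes Timm13 (1.46) and Timm8a1 (1.44), and the receptor gene Tomm70a (1.27). Of 6 genes of pyruvate dehydrogenase and pyruvate carboxylase, which use the pyruvate that Mpc1 and Mpc2 bring in, 5 were higher on day 7 than on day 1 (median 1.10), among them Pdhx (1.22) and Dld (1.19), while Mpc1 differed by 0.07. Of 7 shuttle enzymes 3 were higher on day 7 than on day 1 (median 0.91), namely the malic enzyme gene Me1 (1.67) and the malate dehydrogenase genes Mdh1 (1.14) and Mdh2 (1.07).

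Of 16 subunits of the respiratory chain and ATP synthase, 3 were higher on day 7 than on day 1 (median 0.85), led by Atp5o (1.55) and Cyc1 (1.23). Of 5 outer membrane genes 1 was higher, the porin gene Vdac1 (1.36, median 0.63). Of 5 genes of mitochondrial one-carbon and glycine metabolism 2 were higher (median 0.50), Gcsh (2.00) and Shmt2 (1.19), beside a difference of -0.62 for the glycine carrier Slc25a38. In the carnitine system 1 of 4 was higher, Cpt1c (2.03), at signals of 158 on day 7 and 38.8 on day 1. The median was 0.37. Cpt1a went the other way (-0.71), with 571 on day 7 and 933 on day 1, and Cpt2 (0.46) and Crat (0.27) were not called. Of 4 genes of the calcium uniporter 0 were called, with a median of -0.14. No gene of these lists was lower by 2-fold on day 7 than on day 1. The difference between these lists and the carriers was not tested.

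**Figure D5:**
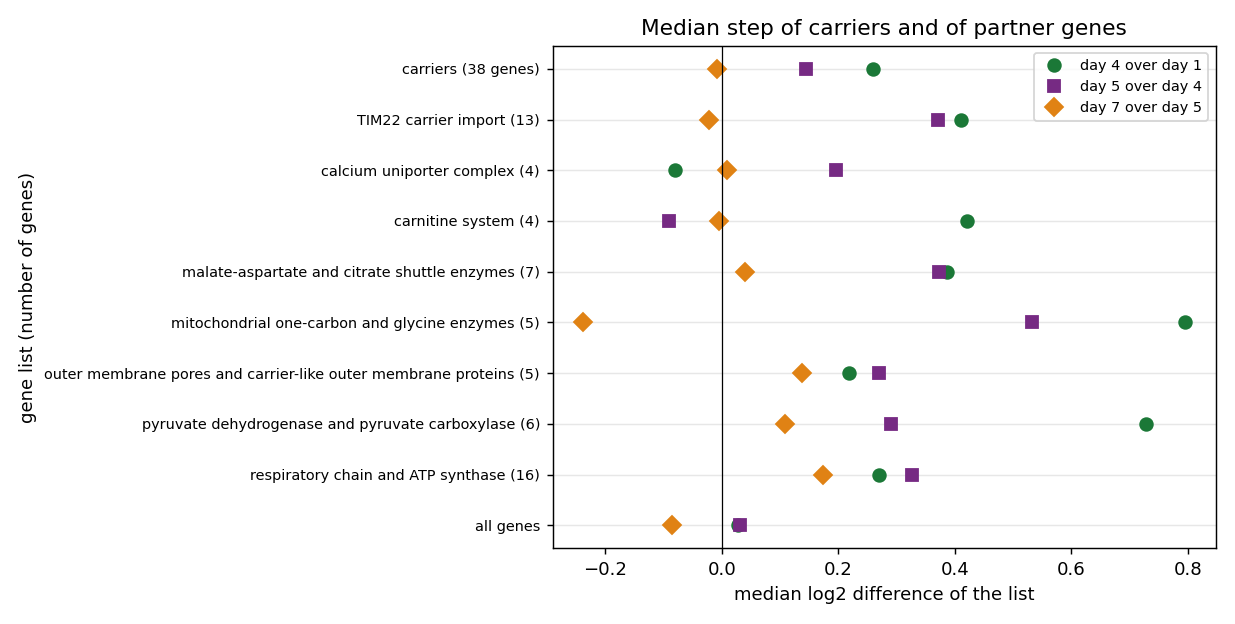
Median log2 difference (horizontal axis) of carriers, of 8 lists of partner genes and of all genes (rows, number of genes in brackets), for the 3 consecutive steps (symbols). The carrier medians are 0.26 for the step to day 4, 0.14 for that to day 5 and -0.01 for that to day 7; the pyruvate dehydrogenase list lies at 0.73 in the first step.

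Markers of several cell types were also higher than on day 1. On day 4 against day 1, 15 of 16 stromal, 8 of 12 osteoclast and 5 of 12 macrophage marker genes were at least 2-fold higher, and on day 7 against day 1 these counts were 13, 10 and 6. In both comparisons 1 osteoclast marker, Car2 (-3.47 on day 4 and -1.83 on day 7), and 1 macrophage marker, Itgam (-1.69 and -1.05), were at least 2-fold lower. The summed macrophage signal was 43555, 76038, 71989 and 72911 on the 4 days, and that of osteoclast markers 16956, 29726, 49655 and 58021. On day 7 against day 5, 9 of 16 stromal markers were at least 2-fold lower. In that step Slc25a4, Slc25a13 and Slc25a26 differed by 0.07, 0.46 and -0.20. The relation of the markers to the signals of these carriers was not tested.

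As a measure of precision, different probe sets of a carrier gene, above the floor on both arrays, had a pooled SD of 0.42 on the log2 scale on day 4 against day 1, 0.31 on day 5 against day 4, 0.23 on day 7 against day 5 and 0.52 on day 7 against day 1. On day 4 against day 1 the representing probe sets of Slc25a4, Slc25a13, Slc25a26, Slc25a53, Slc25a44 and Slc25a38 differed by more than 2 times this SD. The second Slc25a53 probe set went the other way (0.48), and the other Slc25a44 probe sets gave 0.64 and 0.07. Slc25a13 and Slc25a38 have 1 probe set each and add nothing to the SD. On day 7 against day 1 the called difference of Slc25a22 (-1.02) was less than 2 times the SD. This spread is between probe sets on the same arrays and says nothing of variation between cultures.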

How the data were processed

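Bone marrow cells were profiled with 1 Affymetrix array at each of days 1, 4, 5 and 7, and biotinylated cRNA was made from 250.0 ng of total RNA per the labels' protocols. The authors deposited 45101 probe set signals, an intensity in linear units. GCOS, version 1.4, and MAS5 stand in the submitters' processing notes, and to what level arrays were scaled is not stated there. Median signals without the 64 control probe sets were 38.3, 34.3, 32.3 and 26.2. Detection calls were not used; the number of arrays limits the precision.

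The title of each array gave its day. Signals under the floor of 32.4 were set to it, and log2 differences were taken for 5 comparisons, with no test. Where a signal on just 1 side of a comparison passed the floor, the fold is a bound ("at least"). A single gene symbol was given for 34945 of the other 45037, several for 932 and none for 9160. Each of 18193 genes was represented by the probe set whose log2 signals had the highest mean, and all 46 members were found in RefSeq's GRCm38.p6 gene table with 0 symbols updated. Signals are not compared between genes. Members and lists were chosen with earlier results of these data known. All members could be named; 4-array signals were given to those reaching 2-fold in any comparison and to a fixed set, with other members' signals added where useful, chosen after their values were seen. The lists of T and NK cells (1 of 6 lower on day 4 against day 1) and adipocytes (1 of 6 higher) were also counted. The 7 alternatives were floors at the 25th and 60th percentile of all values, 16 added to each signal without a floor, quantile normalization, median scaling, the mean over probe sets, and leaving out _x_at and _s_at probe sets. Counting was tested on simulated data. Python 3.11.15, numpy 2.4.6, pandas 2.3.3 and matplotlib 3.10.9 were used.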

Additional observations from a re-analysis of the deposited data

How the results depend on the processing

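No paired analysis was possible because each group holds 1 array. Of 10 calls among the 17 members repeated singly, tried under 7 alternatives each, 63 of 70 repeats stayed past 2-fold in the same direction, 7 did not and 0 turned to the opposite direction; 8 repeats of other values of these 17 gained a call, 4 of them Slc25a26 on day 7 against day 1 (1.38 with quantile normalization, 1.14 with median scaling, 1.11 with the mean over probe sets, 1.23 without _x_at and _s_at). Lost were Slc25a22 on day 7 against day 1 with 16 added and both scalings, Slc25a51 there with median scaling, and Slc25a53 with the mean over probe sets (-0.62 on day 4 against day 1, -0.97 on day 7 against day 4) and the higher floor (-0.08 on day 7 against day 4). The calls of Slc25a4 and Slc25a13 on day 4 and day 7 against day 1 and of Slc25a26 on day 4 against day 1 held under all 7. Of 105 repeats of member counts and medians 8 moved, a count by over 1.5 times. Smaller changes were 4 higher on day 4 against day 1 with the lower floor (Ucp3 added), and on day 7 against day 1 3 higher and 2 lower with quantile normalization, 3 and 4 with the mean over probe sets (Slc25a29 added to the lower), 3 and 3 without _x_at and _s_at, and 2 and 4 with the lower floor (Slc25a18 added). The number of members lower on day 4 against day 1 (1) was 2 with the floor at the 25th percentile, 2 with 16 added (Slc25a18 in both cases) and 0 with the mean over probe sets. The number lower on day 7 against day 4 (1) was 0 with the floor at the 60th percentile. With the mean over probe sets it stayed 1, with Slc25a51 (-1.41) in place of Slc25a53. The number higher there (0) was 1 after quantile normalization and 1 after median scaling (Slc25a13 in both). After median scaling the numbers on day 7 against day 1 were 4 higher, with Slc25a10 and Slc25a26 added, and 1 lower. The cause was not tested. Signals near the floor, such as those of Ucp3, Slc25a23 and Slc25a34, carry no ordering.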
